A study of Mus musculus with 15 samples.

Results

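The cytokine and chemokine transcripts that iNKT cells are known for were followed in unstimulated iNKT cells sorted from 4 lymphoid tissues. The 10 genes were taken by name: the cytokine genes Ifng, Il4, Il13, Il17a, Tnf and Il2, and the chemokine genes Ccl3, Ccl4, Ccl5 and Xcl1. All 10 were found among the 48795 genes listed for each library, of which 24546 had at least 1 read in any library. RNA came from iNKT cells of 6-week-old wild-type C57BL/6 mice, with no knockout, transgene or treatment in any group, and the 15 libraries comprised 4 from thymus, 4 from spleen, 4 from mesenteric lymph nodes (mLN) and 3 from inguinal lymph nodes (iLN). Cells had been sorted as TCRβ+ cells that bound a CD1d tetramer and lacked B220, CD11b, CD11c and CD8, so each library mixed all iNKT subsets of its tissue. The labels call the replicates biological but do not say whether a library came from 1 mouse or from pooled mice. Lymph nodes had been digested with enzymes whereas thymus and spleen had been pressed through a strainer, and this difference cannot be told apart from the tissue. The question the comparison addresses is how the program of iNKT cells differs with anatomical location.

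iNKT cells leave their development as effector cells: they hold mRNA for cytokines before they meet an antigen, and release the proteins within hours of TCR stimulation. By convention NKT1 cells, which depend on T-bet, make IFN-γ, NKT2 cells, which carry high GATA3, make IL-4 and IL-13, and NKT17 cells make IL-17A. The chemokines CCL3, CCL4 and CCL5 draw T cells, monocytes and other leukocytes, and XCL1 draws cross-presenting dendritic cells through XCR1.

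The libraries held 1152702 to 8670570 expected counts, the lowest being thymus replicate 2, and the 10 members together took 0.0087 to 0.0358% of the counts of a library. Of the libraries, 8 belonged to the batch labelled First (replicates 3 and 4) and 7 to the batch labelled Second (replicates 1 and 2), and every tissue had libraries in both. Of 12 genes that mark T and iNKT cells, 12 passed the filter on low counts and their summed level was 2677 to 4185 CPM (read counts scaled to library size) per library. Spleen replicate 1 stood apart. Its 8 B cell markers summed to 169 CPM against 3.37 to 19.7 CPM in the other libraries, and its 12 myeloid markers to 98.2 CPM against 12.2 to 33.6 CPM. Hemoglobin and other red cell genes summed to 24.0 to 117 CPM in the 4 spleen libraries and to no more than 14.7 CPM elsewhere.

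Corrected for transcript length, the 10 members fell into 3 ranges. Xcl1 and Ccl5 were abundant: Xcl1 was at 117 to 423 TPM (transcripts scaled to their length and to the library total) and Ccl5 at 66.5 to 679 TPM over the 15 libraries, above 95.4 to 98.8% and 89.9 to 99.3% of the genes detected in the same library, respectively. Il4, Tnf and Ifng were present in all 15 libraries at an intermediate level, with 11.5 to 33.7 TPM for Il4, 4.44 to 49.1 TPM for Tnf and 2.37 to 42.4 TPM for Ifng. Il13 lay lower, at 0 to 13.6 TPM, with reads in 12 of 15 libraries. Ccl4, Ccl3, Il2 and Il17a were close to the limit of detection, with 34, 12, 10.2 and 5 expected counts in all 15 libraries together. In TPM the most abundant member was Xcl1 in every thymus library and Ccl5 in every spleen library.

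**Figure D1:**
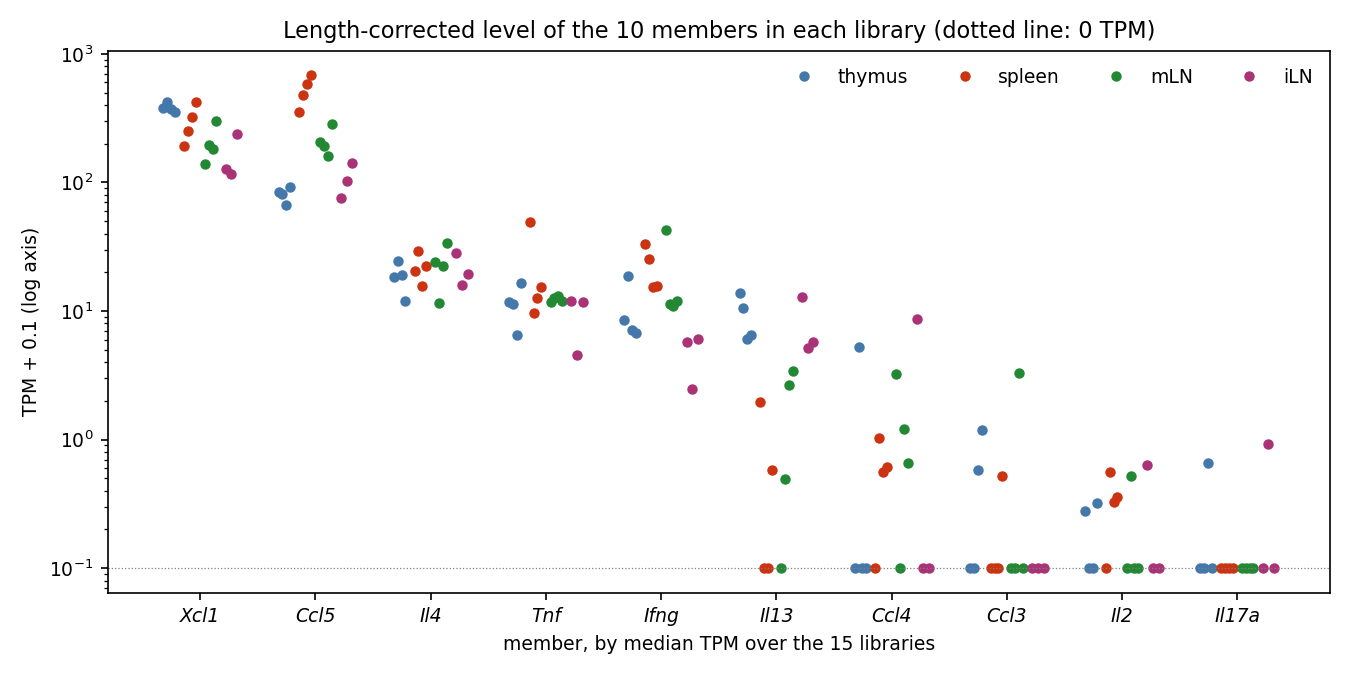
Each point is 1 library, coloured by tissue, and the log axis gives TPM plus 0.1 for each of the 10 members, ordered by the median over the 15 libraries. Xcl1 and Ccl5 lie between 66.5 and 679 TPM, Il4, Tnf and Ifng between 2.37 and 49.1 TPM, and most libraries lie on the dotted line of 0 TPM for Ccl3, Il2 and Il17a.

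Tissue differences were tested on expected counts with edgeR's quasi-likelihood test, with tissue and batch in the model, over 13600 genes. Calls needed an adjusted p (Benjamini-Hochberg) under 0.01 and, between a pair of tissues, a fold over 1.5 as well. Of the 10 members, 6 had enough counts to be tested: Ccl5, Xcl1, Tnf, Ifng, Il4 and Il13. Over the 4 tissues, 2 of the 6 were called, Ccl5 (adjusted p = 1.74e-06) and Xcl1 (adjusted p = 0.00316), where 3.38% of all genes tested were called. Ccl5 alone was called in thymus against spleen (1 of 6 members, 1.32% of all genes), in mLN against spleen (1 of 6, 0.654%), in iLN against spleen (1 of 6, 1.55%) and in mLN against thymus (1 of 6, 1.60%). Xcl1 alone was called in iLN against thymus (1 of 6, 1.5%). No member was called between iLN and mLN with edgeR, where 0.471% of all genes were, although 3 members had an unadjusted p under 0.05 there and DESeq2 called 1, Ccl5.

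**Figure D2:**
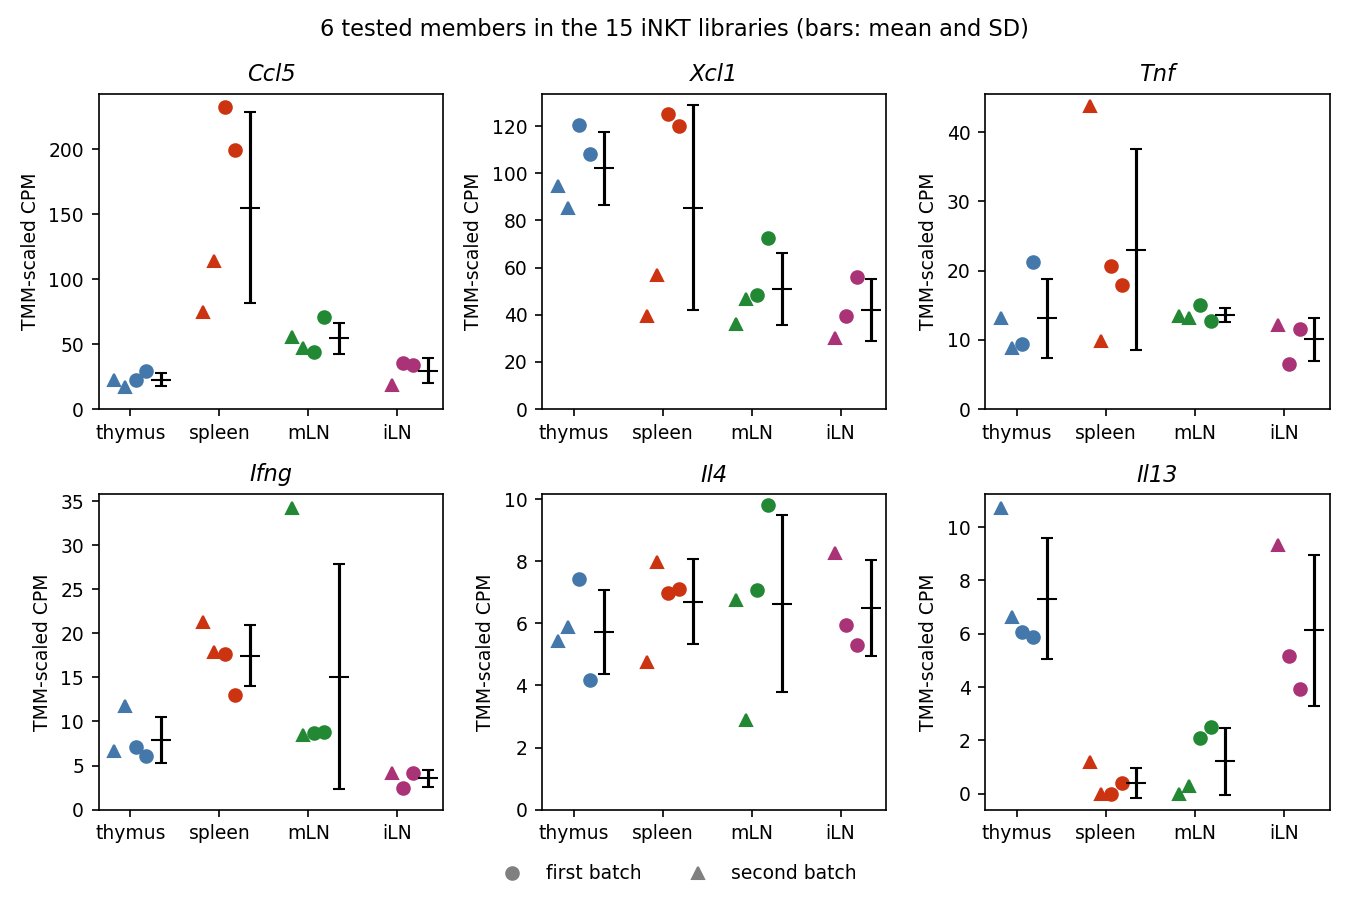
Each panel shows 1 of the 6 tested members, with TMM-scaled CPM on a linear axis and 1 point per library (circles, first batch; triangles, second batch; bars, mean and SD). Ccl5 in spleen lies above every library of the other tissues, Il4 overlaps among all 4 tissues, and Il13 in thymus and iLN lies above every spleen and mLN library.

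Among the chemokines, Ccl5 was highest in the spleen. Its gene lies at chr11:83525778-83530518 (GRCm38, minus strand). In the spleen its level was 74.8, 114, 232 and 199.5 CPM in replicates 1 to 4. In mLN it was 55.8, 47.4, 44.1 and 70.9 CPM, and in iLN it was 18.5, 35.8 and 34.2 CPM in replicates 2 to 4. In thymus it was 22.2, 16.9, 22.3 and 29 CPM. The spleen values did not overlap with those of any other tissue, though the lowest, 74.8 CPM, was close to the highest mLN value, 70.9 CPM. The mLN values lay above all of thymus and iLN, and thymus and iLN overlapped. How many other genes split in this way was not counted.

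Against the spleen mean of 155 ± 73.2 CPM (SD, n = 4), Ccl5 fell by 2.68 on the log2 scale in thymus (SE 0.26, adjusted p = 2.49e-06), to 0.156 times the spleen level. It fell by 2.46 in iLN (SE 0.28, adjusted p = 3.37e-05) and by 1.40 in mLN (SE 0.24, adjusted p = 0.00529). From thymus to mLN it rose by 1.28 (SE 0.25, adjusted p = 0.00547). The difference between iLN and mLN (log2 change -1.07, SE 0.27, adjusted p = 0.0591) and that between iLN and thymus (log2 change 0.22, SE 0.27, adjusted p = 0.747) missed the threshold. The order of the levels was therefore spleen, then mLN, with iLN and thymus not separated from each other and iLN not separated from mLN. In these sorted populations, fewer cells of a type that makes Ccl5 and less Ccl5 RNA per cell cannot be told apart.

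The Ccl5 changes against spleen had the same direction in both batches. Within the first batch Ccl5 changed by -3.08 on the log2 scale in thymus, -1.93 in mLN and -2.64 in iLN against spleen, with adjusted p of 0.000369, 0.0198 and 0.000997. Within the second batch the changes were -2.26, -0.88 and -2.37, with adjusted p of 0.0486, 0.534 and 0.169. Spleen replicate 1, the library with the most B cell and myeloid markers, had the lowest Ccl5 of the 4 spleen libraries, and without it the changes were -2.87, -1.60 and -2.63. The mLN calls were the least stable: leaving out any 1 of spleen replicates 2, 3 and 4 or mLN replicates 2, 3 and 4 put the adjusted p against spleen at 0.0115 to 0.0314, with log2 changes of -1.44 to -1.20. The mLN call against thymus was lost without thymus replicate 2, 3 or 4, mLN replicate 1, 2 or 4, or spleen replicate 4, at log2 changes of 1.14 to 1.30 and adjusted p of 0.0110 to 0.0322. It was also lost with the replicate number as a block (log2 change 1.29, adjusted p = 0.0101). The part of red cell RNA, which was highest in the spleen libraries, was not tested. NK cells and CD8 T cells also express Ccl5. The 7 NK cell markers summed to 20.5 to 39.4 CPM in spleen, 237 to 285 CPM in thymus, 4.43 to 11.9 CPM in mLN and 10.6 to 24.4 CPM in iLN. Most of the thymus sum lay in Klra9 and Gzma. Ncr1 and Eomes held 35 and 40 counts in all libraries together, whereas Itga2 held 764, with tissue means of 4.55 to 11.8 CPM. Cd8a was at 3.62 ± 3.72 CPM (SD, n = 4) in spleen and 8.33 ± 8.27 CPM (SD, n = 4) in thymus. The part of NK and CD8 T cells in the Ccl5 levels was not tested.

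Xcl1 followed another order, with its highest mean in thymus and its lowest in iLN. The gene lies at chr1:164931644-164935527 (GRCm38, minus strand). In thymus its level was 94.5, 85.3, 120.4 and 108 CPM in replicates 1 to 4, and in spleen 39.5, 57.0, 125 and 119.8 CPM. In mLN it was 36.2, 46.9, 48.3 and 72.6 CPM, and in iLN 30.1, 39.6 and 56.1 CPM in replicates 2 to 4. Every thymus library lay above every library of both lymph nodes, while the spleen libraries overlapped with those of every other tissue. The number of other genes that split thymus from the lymph nodes was not counted.

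From thymus to iLN, Xcl1 fell by 1.43 on the log2 scale (SE 0.26, adjusted p = 0.00314), to 0.370 times the thymus level. Against spleen its log2 change was 0.38 (SE 0.23) in thymus, -0.65 (SE 0.23) in mLN and -1.06 (SE 0.25) in iLN, with adjusted p of 0.658, 0.217 and 0.0217. From thymus to mLN its log2 change was -1.02 (SE 0.23, adjusted p = 0.0165). DESeq2 called the iLN change against spleen (adjusted p = 0.00306) and the mLN change against thymus (adjusted p = 0.00126), as did edgeR without the filter on low counts. The spleen values split by batch: the second-batch libraries were at 39.5 and 57.0 CPM and the first-batch libraries at 125 and 119.8 CPM. For thymus against spleen the log2 change was -0.11 within the first batch and 0.89 within the second. The decrease from thymus to iLN was -1.26 within the first batch (adjusted p = 0.0300) and -1.59 within the second (adjusted p = 0.442), where iLN had 1 library. It missed the threshold when thymus replicate 1 or 3 or iLN replicate 2 or 3 was left out, at log2 changes of -1.49 to -1.32 and adjusted p of 0.0107 to 0.0177, and the call over the 4 tissues was lost without thymus replicate 1 or 2. Gm20743 overlaps Xcl1 on the other strand and held reads equal to 2.13 to 33.6% of the Xcl1 counts. The labels do not say whether strand was used in counting, and with those reads added to Xcl1 the change from thymus to iLN was -1.34 (adjusted p = 0.00311).

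The receptor gene Xcr1, known from dendritic cells, was at 12.1 ± 4.33 CPM (SD, n = 4) in thymus, 20.7 ± 8.95 CPM in spleen (SD, n = 4), 11.8 ± 3.85 CPM in mLN (SD, n = 4) and 10.5 ± 3.29 CPM in iLN (SD, n = 3), with no call over the 4 tissues (adjusted p = 0.382).

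Ccl3 and Ccl4, which share a chemokine cluster on chromosome 11 with Ccl5, were near 0. Ccl3 lies 117 kb from Ccl5 and Ccl4 a further 13.2 kb beyond Ccl3, measured between the nearer ends of the genes. Ccl3 had reads in 4 of 15 libraries, 7 of its 12 counts coming from mLN replicate 3, where it reached 1.46 CPM. Ccl4 had reads in 8 libraries, and 16 of its 34 counts came from iLN replicate 2 at 2.87 CPM. A level of 3 counts corresponded to 0.296 to 2.21 CPM depending on the library, so lower levels of these genes rested on fewer reads and could be missed. Neither gene passed the filter for testing.

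Ifng, the effector cytokine of NKT1 cells, was present in every library at a low level. It ranged from 13.0 to 21.3 CPM in spleen, from 6.07 to 11.8 CPM in thymus and from 2.44 to 4.13 CPM in iLN. In mLN, 3 libraries lay at 8.42 to 8.86 CPM and replicate 1 at 34.2 CPM, the highest value of all 15. The spleen values lay above all of thymus and iLN, and the iLN values below every other library. The number of other genes that split in these ways was not counted.

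None of these Ifng differences was called with edgeR. Over the 4 tissues its adjusted p was 0.0419. Against spleen its log2 change was -2.17 in iLN (SE 0.53, adjusted p = 0.0222), -1.17 in thymus (SE 0.46, adjusted p = 0.291) and -0.30 in mLN (SE 0.44, adjusted p = 0.853). A single library moved the mLN value and the call in iLN. Without mLN replicate 1 the mLN change was -0.95. The iLN change was then called at nearly the same value, -2.24 (adjusted p = 0.00608). That omission also took the calls among all genes in iLN against spleen from 211 to 267. DESeq2 called the iLN change with all libraries (adjusted p = 0.00135). The library mLN replicate 1 also had the most Trdc, a gamma-delta T cell gene. Of the 4 gamma-delta genes listed, 2 were found, with summed levels of 7.78 CPM in that library, 0.208 to 2.70 CPM in the other mLN libraries and 0 to 0.814 CPM elsewhere. The other gene found, Trdv4, was at 0 in all libraries. Their part in the Ifng value was not tested.

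Tnf, which activates endothelium and macrophages, was at 8.82 to 21.2 CPM in thymus, 9.77 to 43.7 CPM in spleen, 12.7 to 15 CPM in mLN and 6.50 to 12.2 CPM in iLN. All 4 tissues overlapped. Its log2 change against spleen was -0.78 in thymus (SE 0.44), -0.76 in mLN (SE 0.43) and -1.18 in iLN (SE 0.49), with adjusted p of 0.603, 0.531 and 0.222. The highest value, 43.7 CPM, came from spleen replicate 1, the library with the most B cell and myeloid markers, and both of those cell types make Tnf. Their part in the Tnf value was not tested. Without that library the changes were -0.22, -0.18 and -0.63.

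Il4 and Il13, the cytokines of NKT2 cells, lie side by side on chromosome 11 with 12.7 kb between them, Il4 at chr11:53602982-53618669 and Il13 at chr11:53631324-53634702 (GRCm38, both on the minus strand). Il4 was at similar levels in all 4 tissues. Il13 had its higher means in thymus and iLN, a difference not called in the main edgeR fit. Il4 was at 4.17 to 7.44 CPM in thymus, 4.74 to 7.96 CPM in spleen, 2.90 to 9.82 CPM in mLN and 5.30 to 8.25 CPM in iLN. All 4 tissues overlapped, with means of 5.73 to 6.70 CPM. Against spleen the log2 change of Il4 was -0.23 in thymus (95% interval -1.29 to 0.83), -0.03 in mLN (-1.07 to 1.01) and -0.05 in iLN (-1.18 to 1.08). A fall of 2-fold lay within each interval, and a rise of 2-fold within those of mLN and iLN but not that of thymus.

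Il13 had reads in every thymus and iLN library and was lower or undetected in those of spleen and mLN. In thymus it ranged from 5.88 to 10.7 CPM and in iLN from 3.93 to 9.33 CPM. In spleen it ranged from 0 to 1.18 CPM, with 14 counts in all 4 libraries, and in mLN from 0 to 2.50 CPM, with 25 counts. The second-batch mLN libraries were at 0 and 0.290 CPM and the first-batch ones at 2.08 and 2.50 CPM. No thymus or iLN library overlapped with any spleen or mLN library, and how many other genes split this way was not counted. From thymus to mLN the log2 change of Il13 was -2.63 (SE 1.10, adjusted p = 0.284). From mLN to iLN it was 2.37 (SE 1.12, adjusted p = 0.359), and neither was called. The fitted log2 change against spleen was 3.98 in thymus (SE 1.13, adjusted p = 0.0758), 3.72 in iLN (SE 1.15, adjusted p = 0.0851) and 1.35 in mLN (SE 1.17, adjusted p = 0.719), and over the 4 tissues the adjusted p was 0.0752. These missed the threshold with edgeR, whereas DESeq2 called the thymus change (log2 change 4.09, adjusted p = 0.00390) and edgeR without the filter on low counts called both the thymus and the iLN change. Of the 14 spleen counts of Il13, 12 came from spleen replicate 1, and without that library, which leaves 2 counts in spleen, the log2 changes were 5.79 in thymus and 5.47 in iLN, with adjusted p of 0.0353 and 0.0403.

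In TPM, which allows the members to be set against each other, the ratio of Il13 to Il4 was 0.316 to 0.739 in thymus and 0.293 to 0.453 in iLN but 0 to 0.0906 in spleen and 0 to 0.116 in mLN. The ratio of Ifng to Il4 was 0.688 to 1.63 in spleen, 0.373 to 0.766 in thymus, 0.350 to 1.76 in mLN and 0.150 to 0.305 in iLN. Mast cells and basophils also make IL-4 and IL-13. Of 6 of their markers, Mcpt8, Fcer1a and Prss34 were at 0 counts in all 15 libraries. Ms4a2 reached 9.77 CPM in spleen and Kit 15.7 CPM in iLN, while Cpa3 reached no more than 0.987 CPM. The summed level of the 6 was 10.4 CPM in spleen replicate 1 and 15.7 CPM in iLN replicate 4, and 0 to 0.987 CPM in the other 13 libraries. Spleen replicate 1 held most of the spleen Il13 counts, and iLN replicate 4 had the lowest Il13 of the iLN libraries. The part of these cells in the Il13 levels was not tested.

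The sequences before the start sites of 4 members are shown to give the DNA context of these transcripts: Il4, Il13, Ifng and Xcl1. Il4 and Il13 are neighbours, and neither was called in the main edgeR fit. They are the 250 bases before the annotated start in RefSeq (GRCm38.p6), written 5′ to 3′ on the gene's own strand. Of the 10 members, 8 had an entry; Ccl4 and Ccl5 had none. Capitals mark the core motif of NFAT, the calcium-driven factor of cytokine induction, as GGAAA or its reverse complement TTTCC.
Il4, chr11:53618666-53618915: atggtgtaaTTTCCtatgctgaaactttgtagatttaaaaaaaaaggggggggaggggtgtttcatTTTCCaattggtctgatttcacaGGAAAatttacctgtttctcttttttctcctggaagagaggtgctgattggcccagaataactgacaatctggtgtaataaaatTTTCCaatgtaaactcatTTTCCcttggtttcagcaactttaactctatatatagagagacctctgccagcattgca
Il13, chr11:53634703-53634952: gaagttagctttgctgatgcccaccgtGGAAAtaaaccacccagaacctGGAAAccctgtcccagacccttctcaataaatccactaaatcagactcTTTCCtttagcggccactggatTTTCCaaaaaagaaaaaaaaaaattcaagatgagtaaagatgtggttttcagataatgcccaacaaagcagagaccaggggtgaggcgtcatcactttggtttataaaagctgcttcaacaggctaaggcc
Ifng, chr10:118440796-118441045: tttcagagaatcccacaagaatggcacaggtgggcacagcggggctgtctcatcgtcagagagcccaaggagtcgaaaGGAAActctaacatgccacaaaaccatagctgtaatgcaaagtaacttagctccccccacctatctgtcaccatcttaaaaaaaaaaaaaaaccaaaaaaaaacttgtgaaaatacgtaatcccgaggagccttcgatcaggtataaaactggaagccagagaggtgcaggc
Xcl1, chr1:164935523-164935772: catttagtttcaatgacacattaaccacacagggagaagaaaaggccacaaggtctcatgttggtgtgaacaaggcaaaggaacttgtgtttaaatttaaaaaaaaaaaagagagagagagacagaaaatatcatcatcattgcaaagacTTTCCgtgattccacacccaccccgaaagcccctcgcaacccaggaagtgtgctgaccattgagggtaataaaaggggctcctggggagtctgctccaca
On either strand the NFAT core occurred 5 times in the Il4 window, 4 times in that of Il13 and 1 time in those of Ifng and Xcl1, and 55.6% of all 32851 windows of this length held at least 1. The GATA motif AGATAA, searched on both strands and held by 9.99% of windows, occurred 1 time before Il13 and was not found in these letters before Il4, Ifng or Xcl1. The T-box motif GGTGTGA, held by 3.33% of windows, occurred 1 time before Xcl1. The AP-1 motif TGANTCA, held by 6.75% of windows, was found in none of the 4. These matches are descriptions of the letters and were not tied to the levels by any test.

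**Figure D3:**
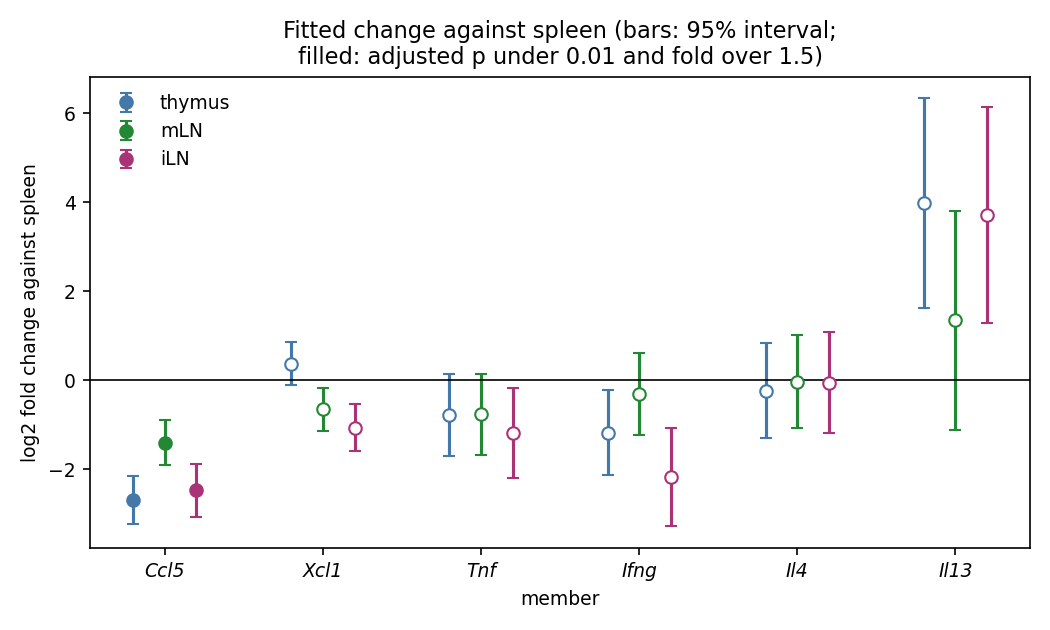
Points are the fitted log2 fold changes of the 6 tested members in thymus, mLN and iLN against spleen, bars their 95% intervals, and filled points the calls. The 3 filled points are those of Ccl5, at -2.68, -1.40 and -2.46, and the widest intervals are those of Il13.

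Il17a, the cytokine of NKT17 cells, was almost undetected, also in iLN, where genes of that subset were highest. It had 5 counts in all, 3 in iLN replicate 3 (0.813 CPM) and 2 in thymus replicate 3 (0.551 CPM), and 0 in the other 13 libraries. Il17f, its neighbour in function, held 27.1 expected counts in all and reached no more than 0.725 CPM. Il23r, the receptor gene for IL-23, was at 74.1 to 119.9 CPM in iLN and 0.203 to 17.7 CPM elsewhere, with a log2 change of 6.08 in iLN against spleen (adjusted p = 0.000882). Of the 11 NKT17 markers, 9 could be tested and 8 were called higher in iLN than in spleen, where 0.963% of all genes were called higher. The 2 that could not were Il17a and Il17f. Their list had been written with earlier results of these data known. Il2, the T cell growth factor made on activation, had 10.2 expected counts in 7 libraries and no more than 0.364 CPM in any.

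**Figure D4:**
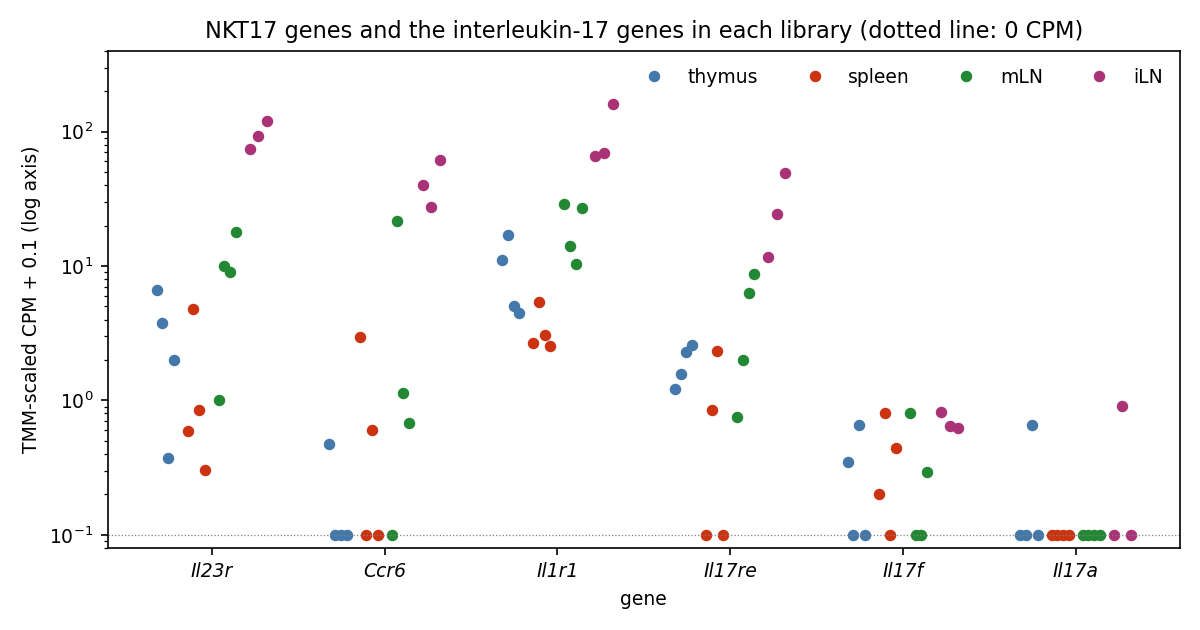
Each point is 1 library, coloured by tissue, with CPM plus 0.1 on a log axis for 4 NKT17 genes and for Il17f and Il17a. The 3 iLN libraries lie above every library of the other tissues for the first 4 genes, at 11.5 CPM or more, whereas Il17f stays at or below 0.725 CPM and Il17a at or below 0.813 CPM in all libraries.

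Of Tbx21, Gata3 and Zbtb16, none was called over the 4 tissues with edgeR, and DESeq2 called Tbx21 (adjusted p = 0.000917) and Zbtb16 (adjusted p = 0.000896). Tbx21, which encodes T-bet, averaged 66.8 ± 29.1 CPM in thymus (SD, n = 4), 73.2 ± 43 CPM in spleen (SD, n = 4), 43.8 ± 25.1 CPM in mLN (SD, n = 4) and 29.5 ± 15.5 CPM in iLN (SD, n = 3), with an edgeR adjusted p of 0.0230 over the 4 tissues. Its values split by batch, with the first-batch libraries above the second-batch ones in every tissue. In spleen they were at 112 and 108 CPM in the first batch and at 46.4 and 26.7 CPM in the second. Gata3 averaged 75.6 to 112 CPM per tissue (edgeR adjusted p = 0.419) and Zbtb16, which encodes PLZF, the factor that gives iNKT cells their effector program, 121 to 229 CPM (edgeR adjusted p = 0.0192). Of the 36 regulators of cytokine gene transcription listed, 34 were tested and 8 called over the 4 tissues, among them Rora, Tcf7 and Runx1. Among all genes tested, 3.38% were called over the 4 tissues. Rora, an orphan nuclear receptor, fell by 2.27 on the log2 scale in thymus against spleen (adjusted p = 3.24e-07). Tcf7, which encodes TCF1, rose by 1.47 in mLN (adjusted p = 0.000181) and by 1.62 in iLN (adjusted p = 3.68e-05) against spleen. By pair, 1 was higher and 2 lower in thymus, 2 and 0 in mLN and 3 and 0 in iLN against spleen, 4 and 0 in mLN and 5 and 0 in iLN against thymus, and 2 and 0 in iLN against mLN.

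Among 16 receptor genes for the members' proteins, 11 were tested and 4 were called over the 4 tissues, among them Il2ra, Ifngr1 and Ifngr2. The calls among all genes were 3.38% over the 4 tissues and 0.471 to 1.60% by pair. Il2ra, the high-affinity chain of the IL-2 receptor, averaged 9.98 ± 4.22 CPM in thymus (SD, n = 4), 129 ± 22.8 CPM in spleen (SD, n = 4), 103 ± 12.8 CPM in mLN (SD, n = 4) and 242 ± 64.1 CPM in iLN (SD, n = 3), and fell by 3.58 on the log2 scale in thymus against spleen (adjusted p = 1.12e-07). The IFN-γ receptor has a pair of chains. Ifngr1, the binding chain, was higher in thymus than in spleen (log2 change 1.25, adjusted p = 0.00236), and Ifngr2, the signalling chain, was higher than in spleen in mLN (2.85, adjusted p = 0.00694) and iLN (2.70, adjusted p = 0.00946). By pair, 1 receptor gene was higher and 2 lower in thymus, 1 and 0 in mLN and 1 and 1 in iLN against spleen, 3 and 1 in mLN and 3 and 0 in iLN against thymus, and 0 and 1 in iLN against mLN.

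Of 29 other T cell cytokine genes, 17 were tested and 1 was called over the 4 tissues, Fasl, a death ligand of cytotoxic cells, which fell by 1.45 on the log2 scale in iLN against spleen (adjusted p = 0.000971) and by 1.59 against thymus (adjusted p = 0.000388). Of all genes, 3.38% were called over the 4 tissues, and DESeq2 called 5 of the 17. By pair, 1 was lower in iLN than in spleen and 2 were lower in iLN than in thymus, and none was called in the other 4 pairs, where 3 to 6 had an unadjusted p under 0.05 with edgeR and DESeq2 called 0 to 2. Of 30 other chemokine genes, only 4 had enough counts to be tested, and none was called in any comparison with edgeR or DESeq2; 1 of the 4 had an unadjusted p under 0.05 over the 4 tissues and 1 in mLN against spleen.

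Of 20 regulators of cytokine mRNA decay and translation, 20 were tested and 2 called over the 4 tissues, Pdcd4, an inhibitor of translation (adjusted p = 0.00726), and Zfp36l1, which binds AU-rich elements (adjusted p = 0.00774), where 3.38% of all genes were called, and DESeq2 called 5 of the 20. In iLN against spleen 2 were higher and 1 lower, in mLN against thymus 1 was higher, and none was called in the other 4 pairs, where 2 to 9 had an unadjusted p under 0.05 with edgeR and DESeq2 called 0 to 1. Of 18 immediate early genes, which mark recent stimulation or handling, 16 were tested and 8 called over the 4 tissues, led by Fos, Nr4a1, Fosb and Dusp1. The share of all genes called was 3.38% over the 4 tissues and 0.471 to 1.60% by pair. Fos averaged 0.0617 ± 0.123, 0.222 ± 0.444 and 9.04 ± 5.57 CPM in thymus, spleen and mLN (SD, n = 4) and 11.5 ± 10.2 CPM in iLN (SD, n = 3). Nr4a1, a target of TCR signalling, averaged 2.05 ± 0.602, 3.70 ± 3.22 and 28.9 ± 12.3 CPM in thymus, spleen and mLN (SD, n = 4) and 22.0 ± 8.10 CPM in iLN (SD, n = 3). All calls by pair were upward: 1 in thymus, 2 in mLN and 2 in iLN against spleen, and 5 in mLN and 4 in iLN against thymus; between iLN and mLN none was called, with 1 at an unadjusted p under 0.05 with edgeR and 0 called by DESeq2. For Fos, Nr4a1, Fosb and Dusp1 the tissues with the higher means were those that had been digested. Egr2, Dusp2 and Myc had their highest mean in thymus, at 49.5 ± 27.2, 64.2 ± 17.6 and 107 ± 9.87 CPM (SD, n = 4). Egr2 was at nearly the same mean in mLN, 46.7 CPM. Of these genes only Myc was called over the 4 tissues with edgeR (adjusted p = 0.00951). Egr2 and Dusp2 were not (adjusted p of 0.0729 and 0.0610). The 18 genes summed to 469.7 to 696 CPM in thymus, 348 to 501 CPM in spleen, 667 to 856 CPM in mLN and 613 to 895 CPM in iLN. The effect of digestion cannot be told apart from that of the tissue.

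By subset list, leaving the members themselves out, 6 of 9 NKT1 markers and 3 of 5 NKT2 markers were called over the 4 tissues. Among all genes the share was 3.38% over the 4 tissues and 0.471 to 1.60% by pair. With the members Ccl5, Xcl1 and Ifng counted in, 3 of the 12 NKT1 markers were higher and 1 lower in thymus, 0 and 4 in mLN and 0 and 4 in iLN against spleen, 1 and 6 in mLN and 0 and 7 in iLN against thymus, and 1 and 0 in iLN against mLN. These counts hold the member calls given above. Ccl5 was the lower marker in thymus and among the lower ones in mLN and iLN against spleen. It was also the higher marker in mLN against thymus, and Xcl1 was among the lower ones in iLN against thymus. Of the 7 NKT2 markers with Il4 and Il13 counted in, 1 was higher in thymus, 2 in mLN and 3 in iLN than in spleen, and none was lower. Neither Il4 nor Il13 was among those called.

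The genes most like Ccl5 and Xcl1 over the 15 libraries were sought among 10145 genes whose mean reached 5 CPM, by the root mean square difference of their centred log2 values. For Ccl5 they were Klf3, Asb2 and Gramd3, each at a difference of 0.60 where the median gene was at 1.25. Klf3, which encodes a transcriptional repressor, averaged 170.1 CPM in thymus, 502 CPM in spleen, 312 CPM in mLN and 187 CPM in iLN. It was chosen for its likeness over these same libraries, so a spread like that of Ccl5 follows from the choice. For Xcl1 they were Ndufb10 and Nme1 at 0.40 and Tpst2 at 0.41, where the median gene was at 0.87.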

How the data were processed

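The series comprised RNA-seq of iNKT cells sorted from thymus, spleen, mLN and iLN, and 15 libraries were analysed. Poly(A) RNA had been amplified with a low-input kit and sequenced as paired reads of 101 bp. Per the labels, the authors trimmed reads with cutadapt (version 1.7.1, quality 10) and quantified genes with RSEM (1.2.31) and Bowtie2 (2.2.9) on GRCm38. The deposited values used here are expected counts, which need not be whole, and the TPM that RSEM gave the authors. The deposited FPKM column was not used.

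Expected counts were rounded and fitted with edgeR (4.0.16; R 4.3.3) by the robust quasi-likelihood test with tissue and batch as terms, TMM scaling and filterByExpr, over 13600 of 48795 genes, with Benjamini-Hochberg adjustment over all genes tested. Groups and batches came from the labels. CPM values are TMM-scaled. TPM served to compare genes and, with limma, as an alternative test between tissues. Symbols and positions came from GENCODE vM21 (GRCm38), where 48349 of 48795 identifiers matched, and promoter letters from RefSeq (GRCm38.p6). The likeness measure used log2(CPM + 0.5), and limma (3.58.1) used log2(TPM + 0.1). DESeq2 (1.42.0), limma, relative log expression scaling, unscaled library totals, no filter, a minimum of 10 counts in every sample, a looser threshold, no batch term, a replicate block, each batch alone, only the tissues compared, and leaving out each library were tried as alternatives. The p-values measure the spread between these libraries. The fit was also run on counts simulated without a batch effect, which cannot show how it copes with the batches of these data.

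The 10 members were always named. From each list of other genes at most 4 were named, those called over the 4 tissues with the smallest p, together with Tbx21, Gata3 and Zbtb16. Some genes that the rule would name are not reported here. The 3 genes most like each called member were named. Receptors, subset genes and marker genes of other cells beyond this rule were named after their values were seen. The members and lists were chosen with earlier results of these data known.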

Additional observations from a re-analysis of the deposited data

Results flagged for a closer look

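In 28 groups of 4 libraries (1 member in 1 tissue, with reads in at least 1 library), 7 had a highest library whose gap to the next, divided by the range, passed Dixon's 95% critical value, where chance flags about 1 in 20 groups. Ifng in mLN had 1 library at 34.2 CPM (ratio 0.983), the others lying at 8.42 to 8.86 CPM. Il13 in thymus had 1 library at 10.7 CPM (ratio 0.849). The other 5 were members near the limit of detection with reads in 1 library of the tissue, namely Il17a in thymus at 0.551 CPM, Il2 in mLN at 0.299 CPM, Ccl3 in spleen at 0.203 CPM, Ccl3 in mLN at 1.46 CPM and Ccl4 in thymus at 1.47 CPM, so that the gap was the whole range.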

How the results depend on the processing

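With relative log expression scaling and with unscaled library totals, the mean levels of the members in each tissue moved by less than 1 SD. The number of members called in thymus against spleen was 1, and became 2 with DESeq2, 2 without the filter and 0 within the second batch (1 to 1 on leaving out a library). In mLN against spleen it was 1, and became 0 without the batch term, with only the tissues compared, within either batch and with limma on TPM (0 to 1). In iLN against spleen it was 1, and became 3 with DESeq2, without the filter and at an adjusted p under 0.05, and 0 within the second batch (1 to 2). In mLN against thymus it was 1, and became 2 with DESeq2, without the filter, with at least 10 counts in every sample and at an adjusted p under 0.05, and 0 without the batch term, with only the tissues compared and within either batch (0 to 2). In iLN against thymus it was 1, and became 0 without the batch term, within either batch and with limma on TPM (0 to 1). Between iLN and mLN it was 0, and 1 with DESeq2 (0 to 0). Over the 4 tissues it was 2, and became 4 with DESeq2, 3 without the filter and at an adjusted p under 0.05, 1 without the batch term, within the first batch and with limma on TPM, and 0 within the second batch (1 to 2).

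Directions turned only for changes that were not called. They were Xcl1 in thymus against spleen (-0.11 within the first batch), Ifng in mLN (0.12 within the second), Il13 in mLN (-2.0 within the second), Il4 in mLN (0.24 within the first, 0.00 with limma on TPM, and -0.27 to 0.22 on leaving out a library) and Il4 in iLN (0.36 within the second, and -0.42 to 0.09 on leaving out a library), all log2 changes against spleen. The cause was not tested. Adding the Gm20743 reads to Xcl1, an alternative chosen after seeing the data, changed no call.

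The labels give the tissues the same replicate numbers. Over 21 same-numbered pairs the deviations from the tissue means correlated at 0.126 on average (0.000926 to 0.265), against 0.113 for other pairs of the same batch, and 12 of 15 libraries correlated best with their own number. Same-numbered libraries also share a batch and a unit label whose meaning is not given, so whether they came from the same mice is not known. With the replicate block the members called in mLN against thymus went from 1 to 0 (Ccl5 1.29, adjusted p = 0.0101), and calls over the 4 tissues among all genes from 459 to 398. The block changed no other call of a member. Levels under 0.296 to 2.21 CPM, depending on the library, rested on fewer than 3 counts and could be missed.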
